A study of Saccharomyces cerevisiae with 13 samples.

Results

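The autophagy and vacuolar hydrolase genes of budding yeast, Saccharomyces cerevisiae, were taken by name. They are every gene whose current symbol is ATG with a number, plus AMS1, APE1, PRB1, PRC1, PEP4, CPS1 and PHO13. Of 44 such genes in the RefSeq gene table, 43 had a probe set that names only them, 36 ATG genes and 7 others, among 5656 genes with such a probe set. ATG15 and ATG19 had several probe sets, and the brightest stood for each gene. The genes were taken by name and not by a difference between groups, but with earlier results of these data known.

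The series asked which genes respond when spermine or spermidine is added to a yeast mutant short of polyamines. It holds 3 arrays of spermine-treated cells (title SP), 5 arrays of spermidine-treated cells (title SPD) and 5 control arrays, all one-colour Affymetrix arrays with biotin-labelled total RNA of yeast cultures. Both treated groups are labelled with the genotype delta-spe3 delta-fms1, which lacks spermidine synthase and a polyamine oxidase, and the control label names a treatment but no genotype. The sources used here state no dose, treatment time, medium or growth stage, so the compounds were compared as given. Whether each array had its own culture is not stated, and the p-values therefore reflect the scatter among these arrays, possibly only technical. Spermine carries an aminopropyl group more than spermidine.

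Autophagy wraps cytoplasm in a double membrane that fuses with the vacuole, the lysosome of yeast, where hydrolases break the contents down. The Atg1 kinase complex starts the membrane, the Atg9 and Atg2 proteins supply it with lipid, and a ubiquitin-like conjugation system attaches Atg8 to it. In growing cells the same machinery runs the cytoplasm-to-vacuole (Cvt) pathway, which delivers the hydrolases Ape1 and Ams1 to the vacuole through the receptor Atg19. The TORC1 kinase holds bulk autophagy down while nutrients are plentiful.

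The median MAS5 signal was 125 to 162 per array, and precision is limited by how many arrays each group has. SPE3 lay between 0.570 and 13.8 and FMS1 between 1.10 and 8.10 on the 13 arrays, below the level of non-yeast control probe sets on the same array (their 95th percentile, 9.33 to 25.4), in controls as in treated cells. Controls 2 and 3 and spermine 1 deviated from their group means together over all genes tested (correlations of 0.49 to 0.58, across genes, which are not independent replicates). A control probe set of 25S ribosomal RNA gave 79.5 on control 2, against 1452 to 8986 on the other arrays, and why was not tested. On controls 2 and 3 the mean of 28 general stress genes stood 1.07 and 1.09 log2 units above the control mean, and on controls 1, 4 and 5 it stood at -0.85, -0.48 and -0.83. Values without controls 2 and 3, a setting chosen after seeing the data, are given beside the members and lists they move most.

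With spermidine, 11 of the autophagy and vacuolar genes were higher than in controls. The 24 other tested genes, ATG8, APE1 and the vacuolar proteases among them, did not pass the test. The vacuolar mannosidase gene AMS1 was 9.71-fold higher, and ATG13, ATG2, ATG19 and ATG1 were 2.03 to 2.83-fold higher. Of the 43 genes, 35 were bright enough to be tested, of which 11 rose and 0 fell (limma, Benjamini-Hochberg adjusted p under 0.05). Of all 5102 genes tested, 17.9% rose and 14.7% fell, 32.6% in either direction. The median log2 difference of the 35 was 0.34, against 0.02 over all genes tested. In 8 of the 35, or 22.9%, the spermidine and control arrays did not overlap, a share near the 23.5% of all genes tested. No tested member had a group mean under the filter signal of 37.8, so none entered through 1 group alone. Signals are per amount of total RNA, so fewer cells that express a gene and less RNA of it per cell cannot be told apart.

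**Figure D1:**
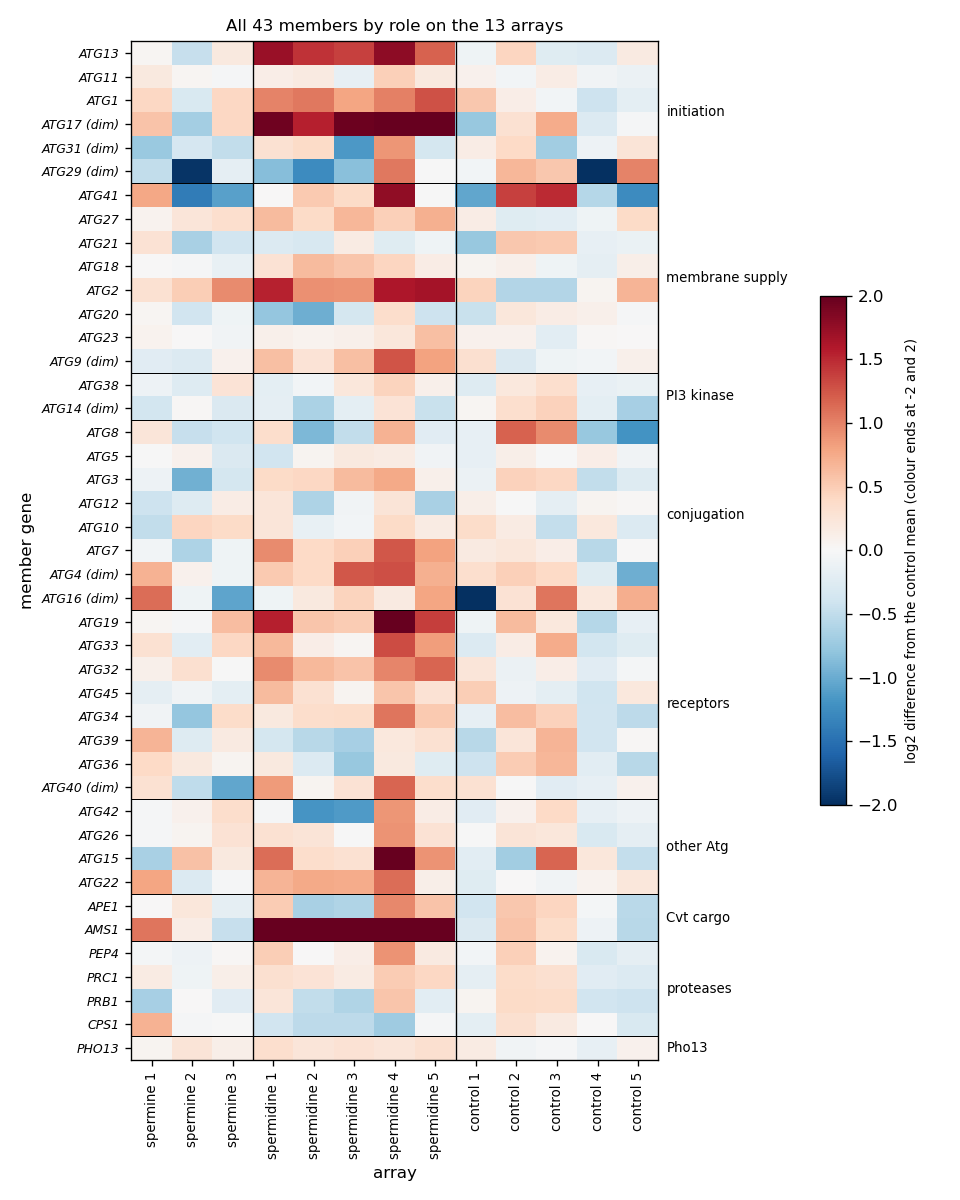
The 43 genes (rows, by role) on the 13 arrays (columns, spermine, spermidine, then control), coloured by the log2 difference of the quantile normalized signal from the control mean, with genes marked dim left out of the test. AMS1 is at the red end of the scale on all 5 spermidine arrays, where ATG13 and ATG17 are also red. ATG8 and ATG41 are reddest on controls 2 and 3 and spermidine 4.

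Among the Cvt cargo enzymes, AMS1 (YGL156W), the vacuolar alpha-mannosidase, had signals of 962, 484, 471, 1399 and 774 with spermidine, against 60.4, 118, 106, 70.1 and 49.6 in controls. Every spermidine array lay above every control, with arrays 4 and 1 the highest. The mean was 818 ± 385 with spermidine and 80.8 ± 29.7 in controls (SD, n = 5 each), a log2 difference of 3.28 ± 0.33 (SE, limma adjusted p = 4.58e-06). AMS1 stayed called in every setting tried, at 3.08 to 3.43 with single arrays left out, 2.52 with 64 added to each signal, 3.62 without controls 2 and 3, and 2.79 with these 2 as the only controls. APE1 (YKL103C), aminopeptidase I and the main Cvt cargo, had 918, 377, 396, 1282 and 939 with spermidine, against 489, 896, 828, 607 and 426 in controls. Its groups overlapped widely, and spermidine arrays 2 and 3 lay below all controls (log2 0.16 ± 0.31, 95% interval -0.51 to 0.82, adjusted p = 0.725). Without controls 2 and 3 it stood at 0.48 (adjusted p = 0.302).

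Of the vacuolar proteases, 0 of 4 passed the adjusted threshold, in limma, a count too small to tell from the 32.6% of all genes tested. The unadjusted limma p was under 0.05 in 2 of the 4, against 42.9% of all genes. PEP4 (YPL154C), proteinase A, which activates the other proteases, was the brightest of the 43 genes. Its signals were 6286, 4778, 4962, 6782 and 5116 with spermidine, against 4539, 6227, 4842, 3739.6 and 4059 in controls (log2 0.34 ± 0.17, 95% interval -0.03 to 0.71, adjusted p = 0.146). Control 2 lay above spermidine arrays 2, 3 and 5, and control 3 above spermidine 2. PRC1 (YMR297W), carboxypeptidase Y, had 4443, 4637, 4026, 4595 and 4843 with spermidine, against 3291, 4689, 4459, 3091 and 3039 in controls (log2 0.33 ± 0.14, adjusted p = 0.0793). Controls 2 and 3 lay within the spermidine range and the other controls below it, and PRC1 passed at log2 0.43 without control 2, 0.41 without control 3 and 0.56 without both. PEP4 passed at 0.46 without control 2 and 0.52 without both. With array weights PEP4 and PRC1 also passed.

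PRB1 (YEL060C), the subtilisin-like proteinase B, had 2714, 1711, 1600.0, 3213 and 2038 with spermidine, against 2421, 3073, 3033, 1765 and 1749.7 in controls, with full overlap (log2 -0.10 ± 0.24, 95% interval -0.61 to 0.41, adjusted p = 0.781). CPS1 (YJL172W), carboxypeptidase S, had 534, 443, 454, 446 and 656 with spermidine, against 599, 839, 759, 675 and 548 in controls. Only spermidine 5 lay inside the control range (log2 -0.44 ± 0.18, adjusted p = 0.0811), and without it CPS1 passed as lower at -0.54. Controls 2 and 3 were its highest controls, and without them it stood at -0.27 (adjusted p = 0.331). PHO13 (YDL236W), a cytosolic phosphatase, had 2094, 1958, 2109.6, 1946 and 2060.1 with spermidine, against 1845, 1559.6, 1619, 1459 and 1744 in controls. The groups did not overlap, but the difference was small (log2 0.29 ± 0.10, adjusted p = 0.0404). PHO13 lost its call without control 2, 3, 4 or 5, without spermidine 1, 2, 3 or 5, and without controls 2 and 3, at log2 values of 0.25 to 0.31. It was lost in 15 of 27 settings, among them median-centred arrays, no intensity trend and the fit of the 2 groups alone.

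**Figure D2:**
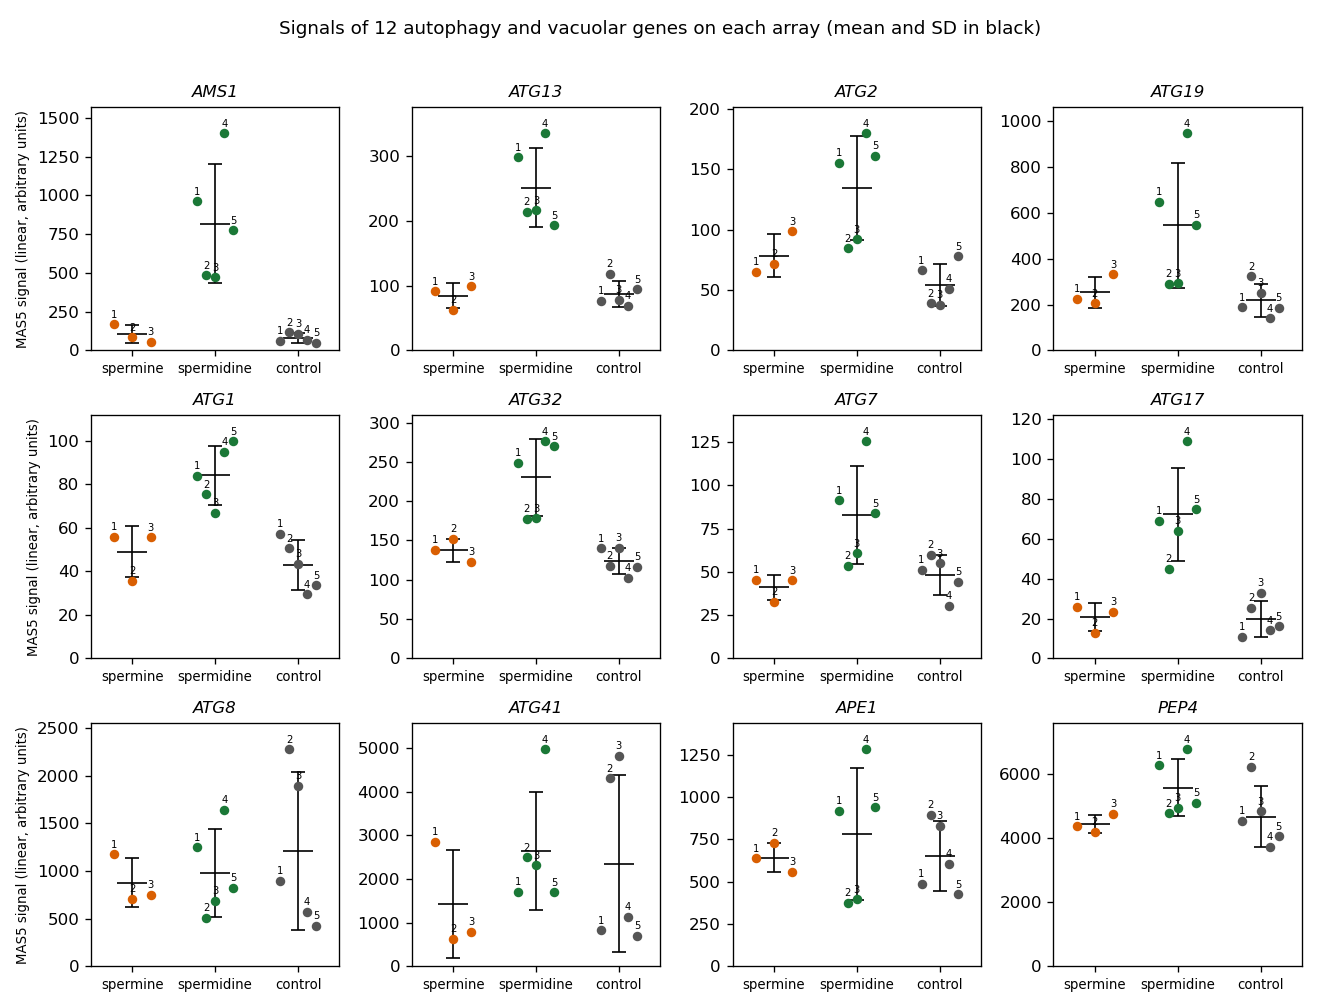
Deposited MAS5 signals (linear axes from 0) of 12 genes on each array, with replicate numbers beside the points and the mean and SD in black, for spermine, spermidine and control. AMS1, ATG13, ATG2, ATG1, ATG32 and ATG17 have no spermidine array within the control range. ATG19 and ATG7, both called, overlap on this scale, as do ATG8, ATG41, APE1 and PEP4, which were not called.

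In the Atg1 kinase complex, ATG13 (YPR185W), the subunit that TORC1 phosphorylates, had 298, 214, 216, 335 and 193 with spermidine, against 76.6, 119, 77.9, 69.3 and 94.6 in controls. The lowest spermidine array lay above the highest control, control 2 (log2 1.501 ± 0.18, adjusted p = 3.09e-05). ATG1 (YGL180W), the kinase itself, had 83.8, 75.4, 66.8, 94.98 and 99.6 with spermidine, against 57.3, 50.6, 43.5, 29.4 and 33.5 in controls, again without overlap (log2 1.02 ± 0.20, adjusted p = 0.00140). Both stayed called in each of the 26 settings in which they were tested, ATG13 at 1.03 to 1.62 and ATG1 at 0.48 to 1.16. Without controls 2 and 3 ATG13 stood at 1.58 and ATG1 at 1.06. With the dimmest 50% of probe sets left out neither was tested. ATG11 (YPR049C), the scaffold of selective autophagy, had values of 66.8 to 126 with spermidine and 69.2 to 93.6 in controls (log2 0.17 ± 0.14, adjusted p = 0.389).

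The remaining complex members ATG17, ATG29 and ATG31, which form the scaffold of bulk autophagy, were too dim for the test. ATG17 (YLR423C) had 69.1, 45.0, 64.05, 109 and 74.8 with spermidine, against 10.7, 25.4, 33.0, 14.1 and 16.1 in controls, and the groups did not overlap. It was above the non-yeast level on 5 of 5 spermidine arrays, 2 of 3 spermine arrays and 3 of 5 controls. With no filter on dim probe sets ATG17 was called, at log2 1.99 ± 0.30 (adjusted p = 0.000188), a size that rests on control signals near background. ATG31 had 12.2 to 66.6 with spermidine and 23.5 to 49.2 in controls, and ATG29 3.48 to 26.01 with spermidine and 2.61 to 23.2 in controls.

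Among the genes of membrane supply, 3 of 7 tested rose, a count too small to tell from the 17.9% of all genes tested. ATG2 (YNL242W), a lipid transfer protein of the growing membrane, had 155, 84.6, 91.9, 179.5 and 161 with spermidine, against 66.3, 39.1, 37.8, 51.2 and 77.8 in controls. The groups did not touch, although spermidine 2 came near control 5 (log2 1.33 ± 0.27, adjusted p = 0.00159). In contrast to AMS1, controls 2 and 3 were the lowest here, and the log2 value was 0.95 without them, 1.91 with them as the only controls and 0.73 with 64 added to each signal. ATG18 (YFR021W), the lipid-binding partner of Atg2, had 166, 183, 185, 198 and 144 with spermidine, against 129, 143, 127, 111 and 135 in controls (log2 0.41 ± 0.13, adjusted p = 0.0224). ATG27 (YJL178C), a membrane protein of Atg9 traffic, had 546, 414, 516, 509 and 547 with spermidine, against 380.5, 286, 296, 315 and 439.9 in controls (log2 0.57 ± 0.14, adjusted p = 0.00702). Spermidine 2 was the 1 array below the highest control.

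Both smaller rises lost their calls in some settings, while their log2 values moved little. With single arrays left out, ATG18 stood at 0.36 to 0.48 and ATG27, which kept its call, at 0.51 to 0.67. ATG18 lost its call at 0.37 without control 4, 0.36 without spermidine 2, 0.38 without spermidine 3, 0.42 without controls 2 and 3 and 0.41 with the replicate number as a block. ATG27 lost it without controls 2 and 3, at 0.42 (adjusted p = 0.0511). ATG9 (YDL149W), the scramblase that seeds the membrane, was too dim for the test, with 31.0, 19.9, 26.6, 49.9 and 38.4 with spermidine, against 24.1, 19.0, 21.3, 18.6 and 19.9 in controls. Without the filter it was called at log2 0.71 ± 0.21 (adjusted p = 0.0213). The other members of the group, ATG20, ATG21, ATG23 and ATG41, had log2 values of -0.43, -0.15, 0.22 and 0.54 and did not pass. Of the subunits of the autophagy phosphatidylinositol kinase that carry an ATG symbol, ATG38 stood at 0.10 ± 0.17 and ATG14 was too dim for the test, with 10.8 to 25.97 with spermidine and 12.6 to 33.4 in controls.

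In the conjugation system 1 of 6 tested genes rose, a count too small to tell from the 17.9% of all genes tested. ATG7 (YHR171W), the activating enzyme of both conjugation chains, had 91.3, 53.6, 60.6, 125 and 83.8 with spermidine, against 51.1, 59.8, 55.0, 30.3 and 44.1 in controls. As deposited, spermidine 2 lay below control 2 and control 3, and after quantile normalization the groups did not overlap (log2 0.77 ± 0.21, adjusted p = 0.0112). ATG3 (YNR007C), the enzyme that transfers Atg8 to lipid, had 146, 127, 161, 205 and 115 with spermidine, against 92.5, 152, 145, 73.3 and 86.7 in controls. Controls 2 and 3 lay inside the spermidine range (log2 0.46 ± 0.22, adjusted p = 0.125), and without them ATG3 passed at 0.76. ATG5, ATG10 and ATG12 had log2 values of -0.01, 0.12 and -0.16. ATG4 and ATG16 were too dim for the test, with means of 23.4 and 10.99 with spermidine and 15.1 and 12.2 in controls.

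ATG8 (YBL078C), the protein that coats the membrane and the one most used as a marker of autophagy, had 1248, 506, 684, 1646 and 826 with spermidine, against 894, 2278, 1892, 574 and 422 in controls. Its controls spread more widely than its spermidine arrays, with controls 2 and 3 above all spermidine arrays and controls 4 and 5 near the lowest of them. The log2 difference was -0.12 ± 0.43 (95% interval -1.03 to 0.80, adjusted p = 0.859). It was 0.59 (adjusted p = 0.210) without controls 2 and 3, and -1.18 with these 2 as the only controls, where it passed (adjusted p = 0.0281). ATG41 (YPL250C), a factor of Atg9 movement, varied in the same arrays, at 1704, 2494, 2314, 4972 and 1693 with spermidine, against 823, 4304, 4819, 1127 and 695 in controls. Its log2 value of 0.54 ± 0.58 did not pass, became 1.49 (adjusted p = 0.0310) without controls 2 and 3, and -0.88 with them alone.

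**Figure D3:**
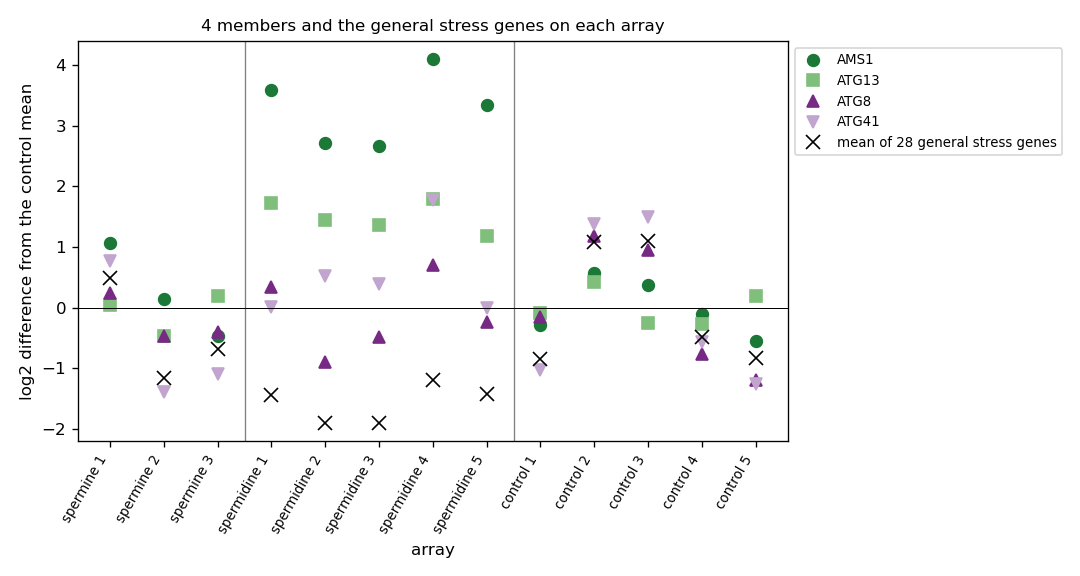
Log2 difference from the control mean (quantile normalized) on each array for AMS1, ATG13, ATG8, ATG41 and the mean of 28 general stress genes (crosses). On controls 2 and 3 ATG8, ATG41 and the stress mean stand near or above 1, and on the 5 spermidine arrays AMS1 stands above 2.6 while the stress mean lies between -1.91 and -1.19.

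Of the cargo receptors, 2 of 7 tested rose, a count too small to tell from the 17.9% of all genes tested. ATG19 (YOL082W), the Cvt receptor, had 648, 289, 293, 945 and 548 with spermidine, against 188, 323, 252, 141 and 184 in controls. Spermidine arrays 2 and 3 lay below control 2 (log2 1.22 ± 0.30, adjusted p = 0.00637), and the call was kept at 1.501 without controls 2 and 3 and lost at 0.80 with them as the only controls. A second, dimmer probe set of ATG19 had means of 12.8 with spermidine and 31.4 in controls, at log2 -1.20, near the non-yeast level. ATG32 (YIL146C), the mitophagy receptor, had 249, 178, 178, 276 and 269.7 with spermidine, against 140.0, 118, 141, 103 and 116 in controls, without overlap (log2 0.86 ± 0.15, adjusted p = 0.000481). ATG33, also of mitophagy, and ATG34, a receptor of Ams1 in starved cells, did not pass (log2 0.60 and 0.50) and did so at 0.90 and 0.87 without controls 2 and 3.

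The receptors of peroxisomes, nuclear envelope and glycogen, ATG36, ATG39 and ATG45, had log2 values of -0.18, -0.21 and 0.37, not past the threshold. ATG40, for endoplasmic reticulum, was too dim for the test, with 26.4 to 73.8 with spermidine and 25.8 to 35.9 in controls. Among the enzymes and transporters that act at the end of the path, ATG22 (YCL038C), which exports amino acids from the vacuole, had 236, 218, 230.1, 343 and 153 with spermidine, against 114, 147, 139, 147 and 161 in controls. Spermidine 5 was the 1 array within the control range (log2 0.68 ± 0.21, adjusted p = 0.0222). The call was lost at 0.62 without control 1, 0.58 without spermidine 4, and 0.67 without controls 2 and 3. ATG15 (YCR068W), the lipase that opens autophagic bodies, had 313, 159, 167, 611 and 255 with spermidine, against 115, 91.2, 317, 161 and 96.2 in controls. Control 3 lay above 4 of the 5 spermidine arrays (log2 0.95 ± 0.38, adjusted p = 0.0721), and without controls 2 and 3 ATG15 passed at 1.11. Its dimmer probe sets gave smaller log2 differences, 0.44 and 0.53. Their means were 135 and 235 with spermidine, against 91.6 and 152 in controls. The sterol glucosyltransferase gene ATG26 and ATG42, a vacuolar carboxypeptidase, stood at 0.35 ± 0.17 and -0.26 ± 0.32.

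**Figure D4:**
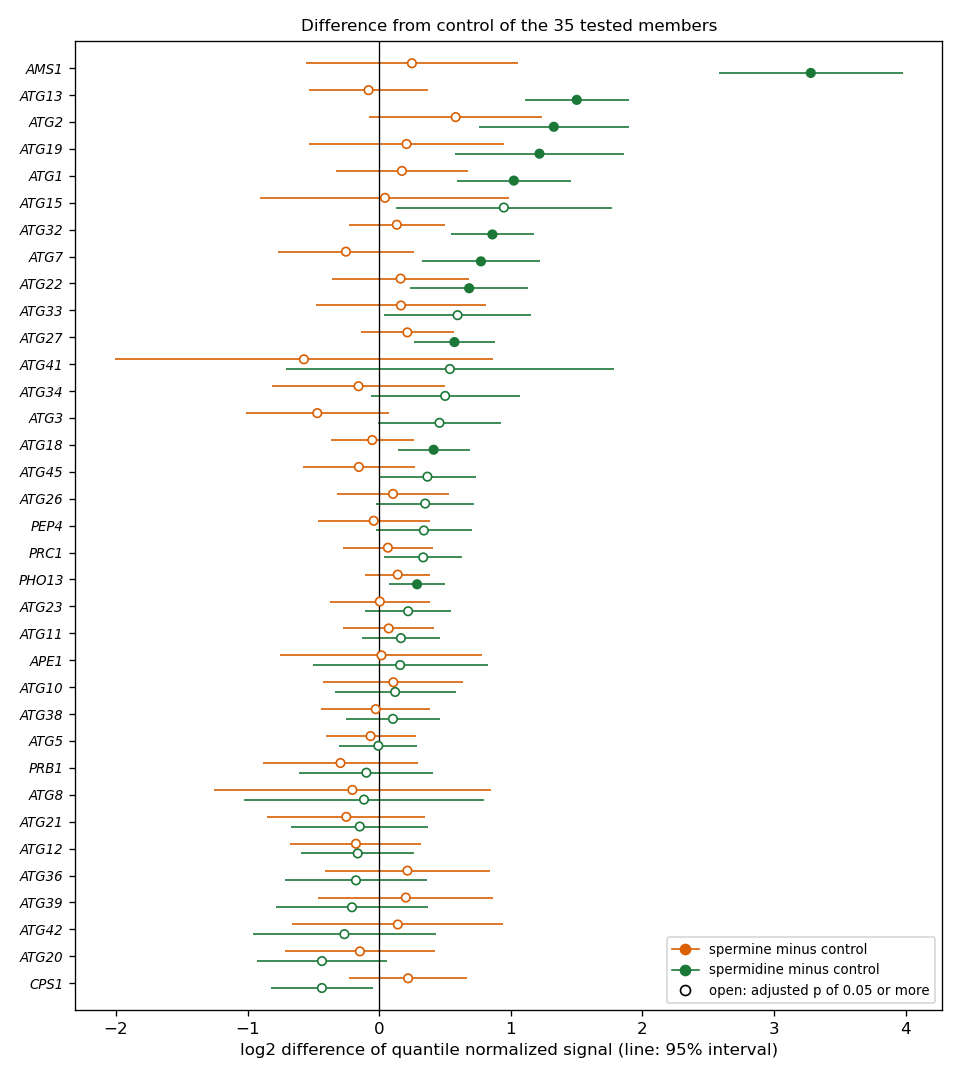
Log2 difference from control of the 35 tested genes, for spermine (orange) and spermidine (green), with 95% intervals and filled points where the adjusted p is under 0.05. The 11 filled points are all spermidine values, from 0.29 for PHO13 to 3.28 for AMS1, and the spermine points run from -0.57 to 0.58.

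Without controls 2 and 3, 14 members (40%) rose and 0 fell with spermidine, against 15.9% and 13.2% of all genes tested. Of these 14 members, 7 were called with all controls. With controls 2 and 3 as the only controls, 7 of the 35 (20%) rose, ATG45 among them. In that setting 4 (11.4%) fell, namely ATG8, ATG21, ATG36 and CPS1. Over all genes 18% rose and 13.6% fell there, so both shares of the members were near those of all genes. ATG7, ATG18, ATG19, ATG22 and PHO13 were not called there. AMS1, ATG13, ATG2, ATG1 and ATG32 were called in both. Controls 2 and 3 held the highest signals of the controls in 21 of 35 tested members, or 60%, against 24.5% of all genes tested. The spermidine arrays also differed among themselves. Spermidine 4 was the highest of them in 28 of the 35 members, against 39.2% of all genes tested, and spermidine 2 and 3 the lowest in 20, against 24.8%. The median signal of the whole array was highest on spermidine 4 (162) and lowest on spermidine 2 (125). After quantile normalization, which levels the arrays, the counts were 22 and 18, against 27.9% and 16.8% of all genes. What set these arrays apart was not tested.

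Further genes of the pathway were read from lists of other names, to be set beside the 17.9% of all genes that rose and the 14.7% that fell. Without controls 2 and 3 these shares of all genes were 15.9% and 13.2%. Of fusion and autophagy machinery without an ATG symbol, 9 of 21 tested (42.9%) rose and 0 fell with spermidine (median log2 0.26), and 6 rose without controls 2 and 3. They included SNX4, a sorting nexin that works with Atg20 (log2 1.07 ± 0.27), VAM7, a vacuolar SNARE (0.86 ± 0.20), YKT6, a SNARE (0.64 ± 0.16), and VAM6 of the HOPS tethering complex (0.60 ± 0.13). In nutrient signalling above autophagy 5 of 31 (16.1%) rose and 2 (6.45%) fell (median 0.13), against 3 and 1 without controls 2 and 3. GAT1, a GATA activator of nitrogen-regulated genes, had a mean of 887 ± 133 with spermidine and 344 ± 137 in controls (SD, n = 5 each, log2 1.41 ± 0.23). IML1, part of a TORC1 inhibitor, and TPK3, a protein kinase A subunit, rose by 0.92 and 0.63. UME6, a repressor of ATG8 transcription, fell by 0.83, with 87.9, 103, 101, 92.7 and 77.4 with spermidine, against 125, 252, 179.97, 167 and 109.9 in controls. All 5 spermidine signals of UME6 lay below all control signals, control 2 was the highest, and without controls 2 and 3 UME6 did not pass (log2 -0.58, adjusted p = 0.0586). TPK3 did not pass there either (0.61, adjusted p = 0.0516).

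A list of other hydrolases and related proteins, not all of them vacuolar or hydrolases, had 3 of 12 (25%) higher and 2 (16.7%) lower with spermidine (median 0.42). Without controls 2 and 3 it had 4 higher and 0 lower. LAP3, a cysteine aminopeptidase, rose by 1.25 and the cell surface protease gene YPS1 by 0.80, while APE3, vacuolar aminopeptidase Y, and NPC2, a sterol transfer protein, fell by 0.59 and 0.55. PBI2, the inhibitor of proteinase B, had 5274, 4372, 3457, 5631 and 5819 with spermidine, against 1060.0, 1958, 2385, 1166 and 965 in controls, and was the 1 riser of 3 inhibitor genes tested. The other inhibitor genes, PAI3 of proteinase A and TFS1 of carboxypeptidase Y, had log2 values of -0.58 and -0.82 and did not pass (adjusted p = 0.380 and 0.0937), with 0.32 and -0.21 without controls 2 and 3. Every spermidine signal of PBI2 exceeded every control signal (log2 1.79 ± 0.25, adjusted p = 9.40e-05), in the same arrays in which its target PRB1 overlapped between groups. Genes of hydrolase sorting had 8 of 22 (36.4%) higher and 2 (9.09%) lower (median 0.17), with VPS9, an exchange factor of endosomes, at 1.21, VPS8, of the CORVET tethering complex, at 0.86 and VPS36, an ESCRT-II subunit, at 0.72, while STP22, an ESCRT-I subunit, fell by 1.09. Of the vacuolar proton pump and its assembly factors, 2 of 18 (11.1%) rose and 2 fell (median 0.10), both shares below those of all genes, and 1 rose and 1 fell without controls 2 and 3. STV1, the pump subunit isoform of Golgi and endosomes, rose by 1.62 and VPH2 by 0.40, and VMA1 and VMA13 fell by 0.66 and 0.57. In vacuolar amino acid transport 3 of 12 (25%) rose and 0 fell (median 0.22), namely RTC2 at 2.94 ± 0.73 (4.26 without controls 2 and 3), VBA1 at 1.17 ± 0.15 and AVT7 at 0.93 ± 0.18.

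General stress genes, which differ between the controls, had 13 of 28 (46.4%) lower with spermidine and 0 higher (median log2 -1.38). Of all genes tested 14.7% were lower and 17.9% higher. Without controls 2 and 3, 9 of 28 (32.1%) were lower, against 13.2% of all genes tested, and the median was -0.57. Their mean relative to the control mean was -1.91 to -1.19 on spermidine arrays, -1.17 to 0.48 on spermine arrays and -0.85 to 1.09 on controls. Their part in the values of the autophagy genes was not tested. AMS1, ATG1, ATG2, ATG7, ATG13, ATG19 and ATG32 were also called without controls 2 and 3. Because stress genes were still lower in that setting, these calls do not test that part.

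Spermine was compared with the same controls, so the values of both comparisons share these arrays. In limma, 0 of 35 tested members passed the adjusted threshold and 0 had an unadjusted p under 0.05. Of all genes tested 0.0196% were called higher and 0% lower, and 8.53% had an unadjusted p under 0.05. The members' median log2 was 0.04, against 0.02 over all genes, with a range of -0.57 for ATG41 to 0.58 for ATG2, and in 0 of 35 members the spermine and control arrays did not overlap, against 6.43% of all genes. Both ends of that range moved with the controls used: without controls 2 and 3 ATG41 stood at 0.38 and ATG2 at 0.19, and with these 2 as the only controls at -1.99 and 1.17, none of them past the threshold. ATG8 stood at -0.20 with all controls, 0.50 without controls 2 and 3 and -1.27 with them alone, also not past the threshold. AMS1 had signals of 169, 84.8 and 57.0 with spermine, and spermine 1 alone lay above the controls (log2 0.25 ± 0.38, 95% interval -0.56 to 1.05, and 0.57 without controls 2 and 3). ATG13 had 91.3, 63.0 and 99.2, against a control mean of 87.4 ± 19.8 (log2 -0.08 ± 0.21, 95% interval -0.54 to 0.37). For ATG2 the interval ran from -0.08 to 1.24 and for ATG8 from -1.26 to 0.85, so these intervals hold differences of 2-fold. None of the other lists of pathway genes had a call with spermine against control in limma, and 1 to 3 genes of the fusion, signalling and sorting lists had an unadjusted p under 0.05.

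Spermine and spermidine, the 1 pair of compounds, were compared directly at doses and times that are not given. Of the 35 members 7 were lower and 1 was higher with spermine than with spermidine, in a table where 11.1% of genes were lower and 9.41% higher. At an unadjusted p under 0.05, 14 of 35 members differed, against 34.4% of all genes. The median log2 of the members was -0.27, against 0.01 over all genes, and in 9 of 35, or 25.7%, the groups did not overlap, against 27.6% of all genes. AMS1 averaged 104 ± 58.6 with spermine (SD, n = 3) and 818 ± 385 with spermidine (SD, n = 5), 8.18-fold lower with spermine (log2 -3.03 ± 0.38, adjusted p = 6.22e-05). The highest spermine array, 169, lay below the lowest spermidine array, 471. ATG13 averaged 84.5 ± 19.0 with spermine and 251 ± 61.5 with spermidine, 2.99-fold lower (log2 -1.58 ± 0.21, adjusted p = 0.000112). AMS1 and ATG13 stayed called whichever array was left out, at -3.44 to -2.68 and -1.72 to -1.39.

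ATG7 had 45.4, 32.5 and 45.2 with spermine, all below the lowest spermidine array, 53.6 (log2 -1.03 ± 0.24, adjusted p = 0.00780). ATG1 had 55.9, 35.6 and 55.6 with spermine, below the spermidine minimum of 66.8 (log2 -0.85 ± 0.23, adjusted p = 0.0183). ATG3 had 104, 55.8 and 84.7 with spermine, below the spermidine minimum of 115 (log2 -0.93 ± 0.25, adjusted p = 0.0177), although neither group passed against control. Spermine 2 was the lowest of the 3 in each of these genes, and without it all 3 lost their calls, at -0.85 for ATG7, -0.62 for ATG1 and -0.68 for ATG3. ATG32 had 138, 152 and 123 with spermine, below the 178 of spermidine arrays 2 and 3 (log2 -0.73 ± 0.17, adjusted p = 0.00772), and kept its call with each array left out. ATG18 had 136, 125 and 117 with spermine (log2 -0.47 ± 0.15, adjusted p = 0.0372). It lost the call without any of the 3 spermine arrays and without spermidine 2, 3 or 4, at -0.50 to -0.41.

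CPS1 was the 1 member higher with spermine, at 1092, 662 and 673, against 534, 443, 454, 446 and 656 with spermidine (log2 0.66 ± 0.21, adjusted p = 0.0394). Spermine 1 was far above the others, and the call was lost at 0.42 without it, and at 0.59 to 0.67 without spermidine 1, 2, 3 or 4. ATG19 stood at -1.01 ± 0.35 with an adjusted p of 0.0524 and ATG2 at -0.75 ± 0.31 with 0.101. ATG19 passed at -1.01 without control 2 or control 4, and at -1.17 without spermidine 2 and -1.19 without spermidine 3. ATG22 passed at -0.84 without spermine 1. With no filter on dim probe sets, ATG17, ATG40 and ATG9 were also lower with spermine, at -1.89, -0.96 and -0.85. For ATG8 the difference was -0.09 with a 95% interval of -1.14 to 0.97, for PRB1 -0.20 (-0.78 to 0.39) and for PEP4 -0.38 (-0.81 to 0.04). The test without spermine 1 and controls 2 and 3 called 6 of the 8, losing ATG18 and CPS1, and added ATG22 and ATG41.

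**Figure D5:**
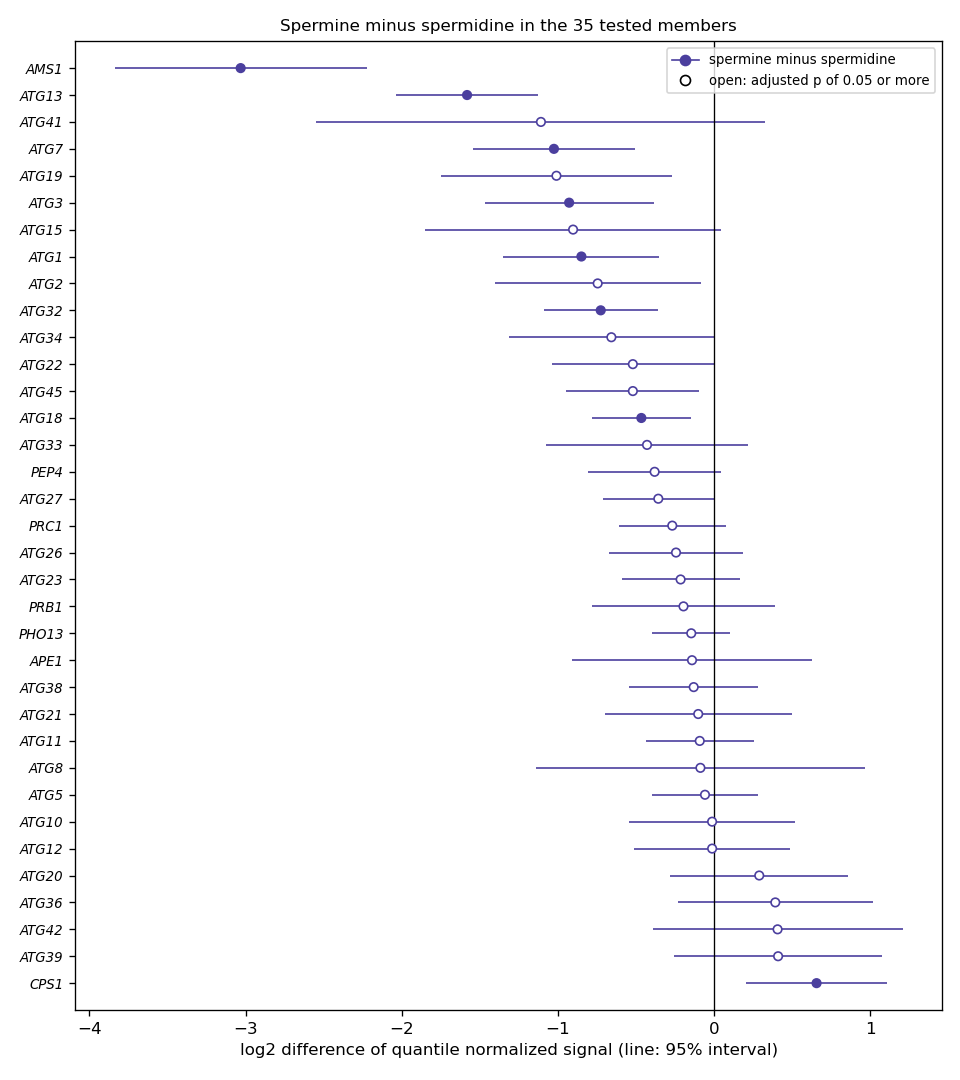
Log2 difference, spermine minus spermidine, of the 35 tested genes with 95% intervals, filled where the adjusted p is under 0.05. AMS1 at -3.03 and ATG13 at -1.58 lie lowest, and CPS1 at 0.66 is the 1 filled point above 0.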

How the data were processed

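Each array's values were deposited as linear signal intensities, which the authors computed with MAS5, per the submitters' processing notes (version not given in the sources used here). Sample titles gave the groups and numbers. The platform annotation gives 1 gene for 6504 of 9335 probe sets, several for 328 and none for 2443, beside 60 control probe sets that were kept out of the fit, and the 6504 were matched to RefSeq gene symbols. The intensities were put on the log2 scale with no pseudocount and quantile normalized, because the array medians had a 1.29-fold range. Probe sets in the lowest 25% of mean signal (under 37.8) were dropped and each gene was represented by its brightest remaining one, giving 5102 genes. The non-yeast level is the 95th percentile of 19 control probe sets per array.

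One limma fit (version 3.58.1, under R 4.3.3, variance trend on intensity) held the group means of all 13 arrays, with p-values adjusted (Benjamini-Hochberg, threshold 0.05) over all genes. The fit was also run on simulated data with noise independent between genes and arrays. Such data lack the deviations that arrays share here, so the run does not show how these move the calls. Quoted ± is SE for log2 values and SD for signals, which are the deposited ones. The members and lists were chosen with earlier results of these data known. Values on each array are given for called members, the 4 brightest, ATG1, ATG8 and the hydrolases. Up to 4 called genes per other list are named, by size of the log2 difference. Arrays given for the dim ATG9, ATG17 and for ATG15, UME6 and PBI2 were chosen after their values were seen. The alternatives were array weights, a fit without the trend, fits of the 2 groups compared, a replicate block, means of probe sets, deposited or median-centred signals, 16 or 64 added to each signal, no filter or a filter at 50%, and leaving out each array. Figures used matplotlib 3.10.9 (Python 3.11.15).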

Additional observations from a re-analysis of the deposited data

Results flagged for a closer look

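With spermidine, ATG41 on spermidine 4 had a signal of 4972 and the next array 2494, and ATG34 on the same array 214 and the next 129.8, gaps that are large for 5 arrays. Likewise ATG27 on spermidine 2 was low, at 414 with the next array at 509, and ATG16 on spermidine 5 was high, at 18.5 with the next at 9.97, under the non-yeast level of that array. Such gaps were looked for in 86 groups of 5, of which chance flags about 1 in 20, and 4 were found.

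The effects of spermine and spermidine relative to control differed, by the test of the difference, in 8 genes. The log2 values of spermine minus spermidine were -3.03 for AMS1, -1.58 for ATG13, -1.03 for ATG7, -0.93 for ATG3, -0.85 for ATG1, -0.73 for ATG32, -0.47 for ATG18 and 0.66 for CPS1.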

How the results depend on the processing

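Across 27 settings 0 named genes reversed while called. The count of members higher with spermidine than in controls was 11, and it was 7 with the dimmest 50% of probe sets left out, where fewer members were tested, 18 with array weights, 9 with a replicate block, and 9 to 13 with single arrays left out. The count lower was 0, with 0 to 1 over single arrays left out (ATG20 without spermidine 4, CPS1 without spermidine 5) and 4 with controls 2 and 3 as the only controls. For spermine against control 0 members were called in each setting. The count lower with spermine than with spermidine was 7, with 3 when the dimmest 50% were left out, 11 with controls 2 and 3 as the only controls (10 without ATG17, which passed the filter in that setting only through its spermidine arrays), and 3 to 8 with single arrays left out. The count higher was 1, with 0 under array weights, in the fit of 2 groups, with a replicate block and without controls 2 and 3 and spermine 1, and 0 to 1 with single arrays left out. Deviations of same-numbered arrays correlated at -0.11 to 0.20 for spermidine and control, -0.57 to -0.25 for spermine and control and -0.32 to 0.02 for spermine and spermidine. Because controls 2 and 3 and spermine 1 deviate together, these values cannot tell whether replicate numbers pair the arrays. The replicate block took the calls of ATG18 and PHO13 against control and of ATG18 and CPS1 between the compounds, and changed no other call. The fit of 2 groups took those of PHO13 against control and of ATG18 and CPS1 between the compounds, median centring and no trend took that of PHO13, and array weights took that of CPS1. The median log2 of members tested ran from 0.11 to 0.48 for spermidine against control. The cause of these moves was not tested where fewer genes tested or fewer arrays do not show it. Signals near the non-yeast level limit what can be said of ATG4, ATG9, ATG14, ATG16, ATG17, ATG29, ATG31 and ATG40.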
